A study of Homo sapiens with 6 samples.

Results

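MYC-bound intervals that ranked lower after fibroblast-conditioned medium (CM) than in serum-free DMEM were examined, 300 of the 3175 intervals that the authors list as common to all MYC libraries. Each common interval took the highest score of the overlapping intervals in the authors' common list for CM and in that for DMEM. Each score became a percentile over the 3175 intervals, where 100 is the highest. The 300 intervals with the most negative CM minus DMEM percentile were chosen, so their percentiles in all 4 libraries were used by the choice and are given as description, with no test. The data go only part of the way with the name of the set. Of the 300, 196 (65.3%) ranked lower in CM whichever library of each condition was taken, against 19.7% of all common intervals. The other 104 did not, and these counts come from the libraries that chose the members. When 1 library per condition chose 300 intervals, between 57.3% and 61.7% were lower in CM in the other 2 libraries. Over all common intervals that share was between 49.7% and 50.6%.

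The study used MIAPaCa2, an established human pancreatic ductal adenocarcinoma cell line. After 48 hours of serum starvation, shared by all groups, the cells spent 3 hours in CM from cancer-associated fibroblasts or in fresh DMEM without serum, before chromatin immunoprecipitation with a MYC antibody and sequencing. Each condition has 2 immunoprecipitated libraries, called CM 1, CM 2, DMEM 1 and DMEM 2 here, and the 2 inputs were not analysed here. Whether a condition's libraries are from separate cultures is not labelled, and their spread may be technical. CM 1 had 15304 peaks, CM 2 12797, DMEM 1 4657 and DMEM 2 7652. Depth is not known, and no score gives a level of binding that can be set against a score of another library.

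MYC binds DNA as a dimer with MAX, most strongly at the E-box CACGTG, and is found mainly at promoters of active genes rich in CpG. Its best known targets are genes for making ribosomes, transfer RNAs, nucleotides and mitochondrial proteins. MYC also binds many promoters without an E-box, where its level depends on the amount of MYC in the cell and on open chromatin. In a bulk assay, the binding per cell and the share of cells bound cannot be told apart.

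Of the 300 members, 204 overlapped at least 1 promoter of the RefSeq table of GRCh38.p14, which gives 250 bases before and 50 bases after a gene start. For each of 6 members, 1 promoter that carries CACGTG is shown. The E-box is the sequence MYC is known to bind, and these promoters differ widely in how many copies they hold and where. The 250 bases before the start are given 5′ to 3′ on the gene's strand, with each CACGTG in capitals. Positions count back from the start, with -1 the base before it, and mark the first base of the motif.
RTN4: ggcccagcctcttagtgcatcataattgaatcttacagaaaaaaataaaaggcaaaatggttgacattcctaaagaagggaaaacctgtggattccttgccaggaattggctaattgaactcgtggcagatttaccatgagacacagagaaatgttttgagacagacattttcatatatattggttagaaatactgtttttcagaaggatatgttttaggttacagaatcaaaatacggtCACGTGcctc
NDUFS7: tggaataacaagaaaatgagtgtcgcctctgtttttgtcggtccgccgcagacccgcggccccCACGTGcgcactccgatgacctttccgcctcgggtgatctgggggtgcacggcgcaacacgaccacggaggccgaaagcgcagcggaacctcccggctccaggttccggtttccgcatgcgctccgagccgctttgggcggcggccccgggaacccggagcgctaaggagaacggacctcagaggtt
TRAPPC2L: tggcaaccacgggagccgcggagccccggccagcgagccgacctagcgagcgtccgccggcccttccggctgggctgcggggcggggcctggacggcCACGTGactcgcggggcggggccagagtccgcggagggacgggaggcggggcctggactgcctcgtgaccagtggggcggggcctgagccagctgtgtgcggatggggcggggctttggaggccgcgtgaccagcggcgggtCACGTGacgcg
ZNF296: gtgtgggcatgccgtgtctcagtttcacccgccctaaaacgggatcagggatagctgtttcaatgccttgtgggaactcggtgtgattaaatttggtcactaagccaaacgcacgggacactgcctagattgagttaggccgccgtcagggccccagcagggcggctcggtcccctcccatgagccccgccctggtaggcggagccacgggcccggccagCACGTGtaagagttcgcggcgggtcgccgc
GTPBP6: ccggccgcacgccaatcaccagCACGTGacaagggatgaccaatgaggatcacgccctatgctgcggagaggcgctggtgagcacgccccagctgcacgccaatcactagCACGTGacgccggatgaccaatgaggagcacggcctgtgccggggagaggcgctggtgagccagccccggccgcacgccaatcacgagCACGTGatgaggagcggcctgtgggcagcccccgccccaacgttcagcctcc
HNRNPH3: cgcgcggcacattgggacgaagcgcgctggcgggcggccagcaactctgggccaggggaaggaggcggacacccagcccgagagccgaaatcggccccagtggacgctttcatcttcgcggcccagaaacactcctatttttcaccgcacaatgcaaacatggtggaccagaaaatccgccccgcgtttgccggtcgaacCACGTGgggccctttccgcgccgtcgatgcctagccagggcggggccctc
The RTN4 sequence is chr2:55048667-55048916 on the minus strand, with CACGTG at -10. NDUFS7 is chr19:1383657-1383906 on the plus strand, with the motif at -187. TRAPPC2L is chr16:88856877-88857126 on the plus strand, with copies at -153 and -11. ZNF296 lies on the minus strand at chr19:45076479-45076728, with the motif at -30. GTPBP6 lies on the minus strand at chrX:318797-319046, with 3 copies at -228, -140 and -52. HNRNPH3 is chr10:68331443-68331692 on the plus strand, with the motif at -50. The GTPBP6 copies stand 88 bases apart within a repeated stretch: shifted by 88 bases, the sequence matches itself at 119 of 162 positions. The RTN4 promoter shown, the least GC-rich of the 6 at 39.3% over its 300 bases, contrasts with TRAPPC2L at 76.0%. The RTN4 interval overlaps 6 promoters, that of HNRNPH3 4, that of TRAPPC2L 3, and those of ZNF296 and GTPBP6 2 each. CACGTG was also found at GALNS in the TRAPPC2L interval and at LINC00685 in the GTPBP6 interval.

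By their medians the members were mid-ranked intervals in DMEM and low-ranked ones in CM. Their CM percentile had a median of 23.5 and ran from 0.0945 to 71.1. Their DMEM percentile had a median of 61.1 and ran from 26.9 to 98.1. In CM 160 of the 300 lay below a percentile of 25 and none above 75, while in DMEM none lay below 25 and 54 lay above 75. A lower rank in CM was mostly not a lower score. The CM score was below the DMEM score in 42 members (14%), against 1.64% of all common intervals. The members' median score was 156.85 in CM and 114.5 in DMEM, against 238.5 and 97 over all common intervals. Neither rank nor score gives a level of binding. The CM minus DMEM percentile difference had a median of -33.0, from -65.5 to -24.9, and the median over all common intervals was 0. The limit of 300 falls on no gap in these values: the last 2 inside it, an interval at the tRNA genes TRF-GAA1-3 and TRK-TTT5-1 and one at NCAPG2, both had -24.9, while the first 2 outside, at ZNF140 and at chr3:189292345-189293952, had -24.9 and -24.8.

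**Figure D1:**
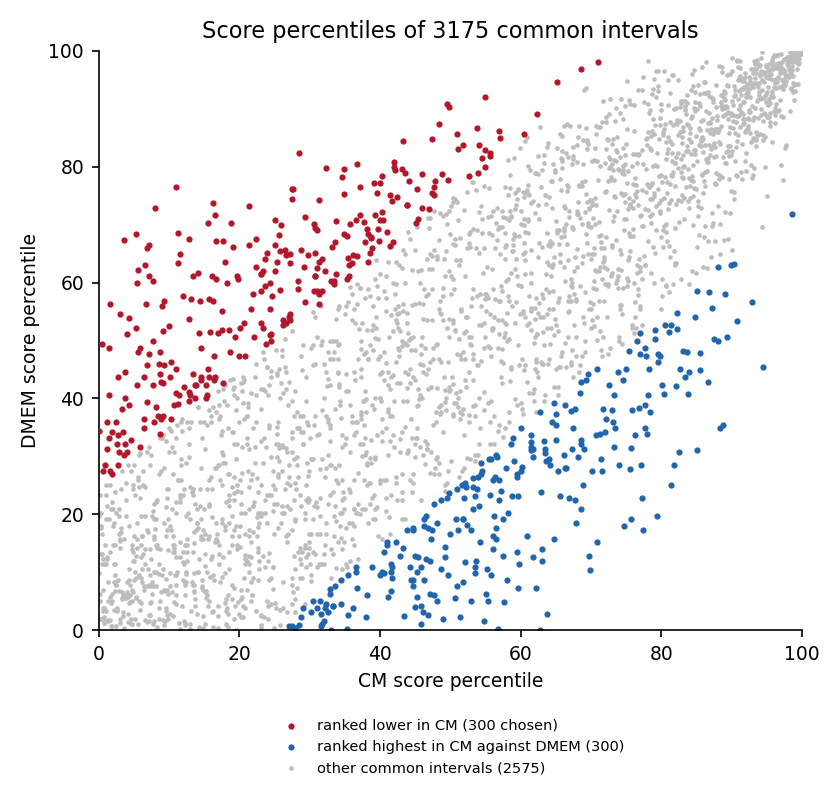
Percentile of the CM score (x axis) against percentile of the DMEM score (y axis) for the 3175 common intervals. The 300 chosen intervals (red) run along the upper left edge of the cloud from a DMEM percentile of 26.9 upward, the 300 with the most positive difference (blue) along the lower right edge, and the highest-ranked intervals of both conditions are grey.

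Read one library at a time, by the highest peak of each library in the interval, the members had median percentiles of 26.7 in CM 1 and 27.2 in CM 2, against 54.7 in DMEM 1 and 57.0 in DMEM 2. All common intervals had medians between 49.8 and 51.1 in the 4 libraries. The CM medians of the members thus lay further from the middle than the DMEM medians, and the spread in DMEM 1 was wide, with quartiles at 35.5 and 73.7. Both CM percentiles lay below both DMEM percentiles in 196 members (65.3%), against 19.7% of all common intervals. Of the rest, 62 were lower in CM in 3 of the 4 library pairs, 39 in 2 and 3 in 1. By pair, 252 members (84.0%) were lower in CM 1 than in DMEM 1 and 276 (92%) lower in CM 1 than in DMEM 2. In CM 2, 246 (82.0%) were lower than in DMEM 1 and 277 (92.3%) lower than in DMEM 2. Against the whole of each library's own list, where the CM lists are far longer, 21 members (7%) were lower in CM in all 4 pairs, against 1.04% of all common intervals. The same libraries had chosen the members, so nothing is read from these counts against the 50.2%, 50.3%, 50.6% and 49.7% of all common intervals in the same 4 pairs.

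**Figure D2:**
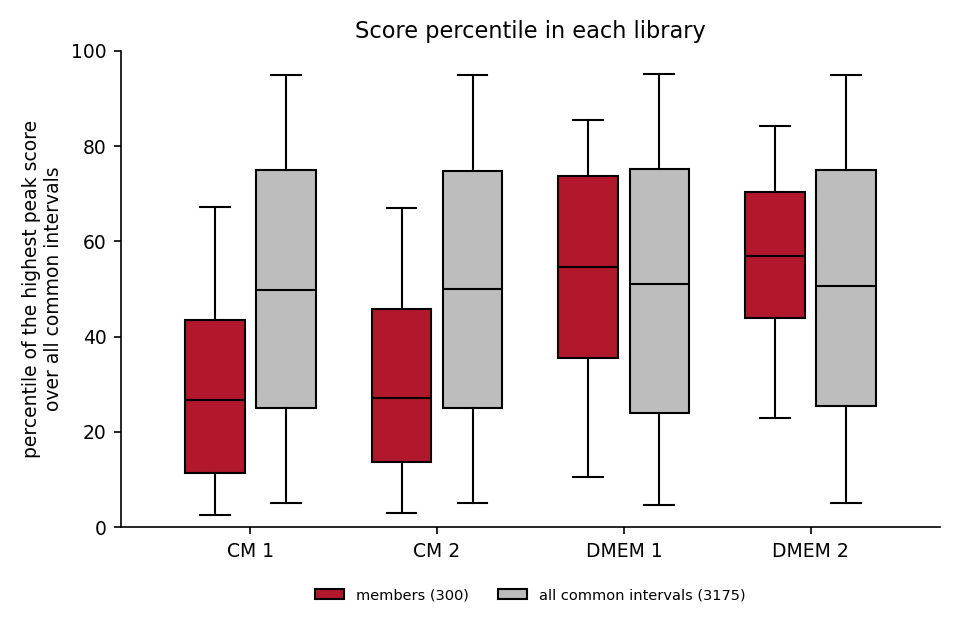
Percentile of the highest peak score in each library (y axis, percentile over the 3175 common intervals) for the 300 members (red) and all common intervals (grey). Lines are medians, boxes the quartiles and whiskers the 5th to 95th percentile; members have medians of 26.7 and 27.2 in CM 1 and CM 2, and of 54.7 and 57.0 in DMEM 1 and DMEM 2.

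How far the rank difference carries over to libraries that did not choose it was read by choosing 300 intervals from 1 CM and 1 DMEM library and reading the other 2 libraries. These readings were added after the data had been seen. Chosen by CM 1 and DMEM 1, 185 intervals (61.7%) were lower in CM 2 than in DMEM 2, against 49.7% of all common intervals. Chosen by CM 1 and DMEM 2, 172 (57.3%) were lower in CM 2 than in DMEM 1, against 50.6%. Chosen by CM 2 and DMEM 1, 174 (58.0%) were lower in CM 1 than in DMEM 2, against 50.3%. Chosen by CM 2 and DMEM 2, 179 (59.7%) were lower in CM 1 than in DMEM 1, against 50.2%. In the libraries not used, the median differences were -3.95, -3.97, -3.07 and -5.36 percentile points. The 300 members, another set and read in libraries that had chosen them, had medians of -26.3, -25.7, -27.0 and -26.0 in the same pairs. Between 119 and 154 of the 300 intervals chosen by 1 library per condition belong to the 300 members.

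**Figure D3:**
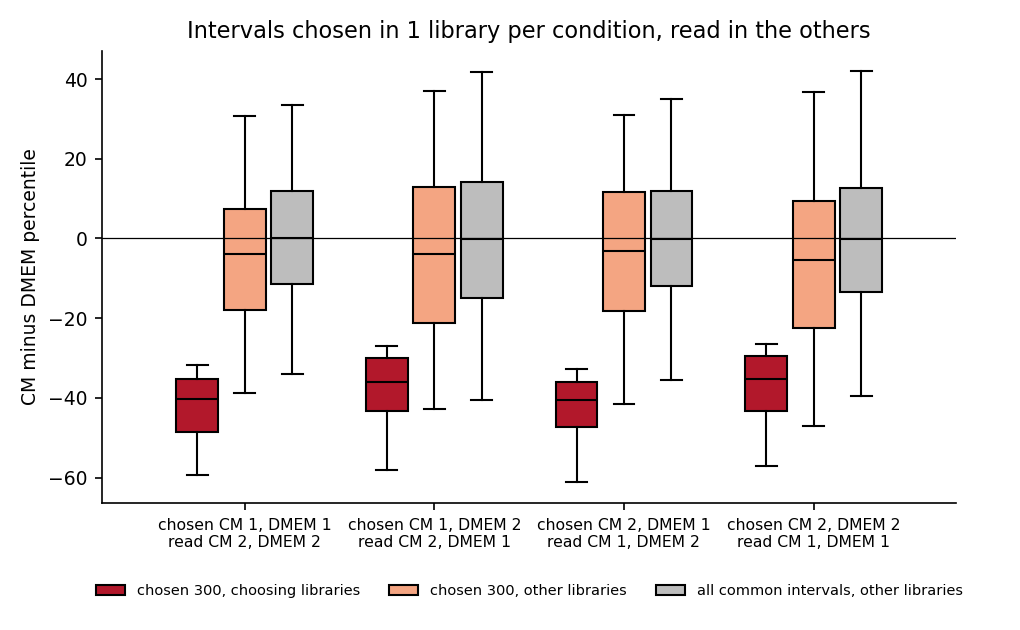
CM minus DMEM percentile (y axis) of the 300 intervals chosen by 1 library per condition, in the libraries that chose them (dark red) and in the other 2 libraries (light red), beside all 3175 common intervals in those other libraries (grey). Boxes show quartiles with the median as a line and whiskers the 5th to 95th percentile; the light red medians lie between -5.36 and -3.07.

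Across the 3175 intervals, the 2 DMEM libraries ranked the intervals less alike (Spearman's rho 0.656) than the 2 CM libraries did (0.836). DMEM 2 was closer to CM 1 (0.753) and CM 2 (0.759) than to DMEM 1, and DMEM 1 had values of 0.670 with CM 1 and 0.648 with CM 2. All 4 libraries share the same intervals and cell line, so these values are a description. DMEM 1 had the fewest peaks of the 4 lists. With its score left out, 205 of the 300 members were chosen again, and with DMEM 2 left out, 151. Leaving out CM 1 kept 180 and leaving out CM 2 kept 191. In all, 42 members were chosen in each of these 4 repeats, and 4 in none of them. In each repeat the highest peak of the remaining library replaced the mean score of that condition's list, while the other condition kept its list score. The loss of a library and the change of score therefore cannot be told apart in these counts, nor in the later ones with 1 library left out.

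The number of peaks in an interval moved with the choice. In CM 2 an interval held more than 1 peak in 125 members (41.7%), against 17.7% of all common intervals, and in CM 1 in 36 members (12%), against 4.79%. The DMEM libraries had more than 1 peak in 55 members (18.3%) in DMEM 1, against 25.3%, and in 72 members (24.0%) in DMEM 2, against 21.3%. The authors' common list gives each interval the mean score of all the peaks it joins, so a further low peak lowers the mean. The CM interval joined 3 or more peaks in 145 members (48.3%), against 20.6% of all common intervals, and the DMEM interval in 26 members (8.67%), against 15.9%. Among these 145 members, 75 (51.7%) were lower in CM in all 4 library pairs, against 18.3% of the common intervals that join 3 or more CM peaks. Among the 122 members with 1 peak in each of the 4 libraries, 97 (79.5%) were lower in all 4 pairs, against 21.0% of the common intervals with 1 peak in each. With the mean of each library's highest peak in place of the list's score, a setting added after the data had been seen, 290 of the 300 members (96.7%) ranked lower in CM, against 50.4% of all common intervals, their median difference was -28.7, and 219 of the members were chosen again. These peaks are from the same libraries that chose the members. Nothing is therefore read from the 96.7%, 79.5% and 51.7% against the shares of common intervals.

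SNHG7, a noncoding host gene of the small nucleolar RNAs SNORA17A and SNORA17B, shows how the list's mean can set the rank. Its interval, chr9:136726331-136729862, had the highest CM and the highest DMEM percentile of all members, 71.1 and 98.1, a difference of -27.0. Its highest peaks stood at percentiles of 91.9 in CM 1 and 96.4 in CM 2, and of 95 in DMEM 1 and 98.5 in DMEM 2. By those peaks it was near the top in every library, with a difference of -3.15, and the CM list joins 5 peaks there. Likewise PHF14, a chromatin reader gene, had a difference of -33.0 by the lists and of 2.88 by the highest peaks, the opposite sign.

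Peaks of the members were narrower in CM than those of the common intervals at large. The highest peak had a median width of 1581 bp in CM 1 and 1060 bp in CM 2 at members, and of 504 bp in DMEM 1 and 669.5 bp in DMEM 2. At all common intervals the medians were 1836 and 1340 bp in CM 1 and CM 2, and 554 and 748 bp in DMEM 1 and DMEM 2. Members' peaks were thus narrower than the common median in all 4 libraries, and CM peaks were wider than DMEM peaks in both sets. Width comes from the same peak calls as the score and is no separate evidence.

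The 12 members with the most negative differences include 6 at starts of protein-coding genes. The first of all was an interval inside STK32C, a gene for a protein kinase, at chr10:132222907-132223792, with percentiles of 5.64 and 17.7 in CM 1 and CM 2, and of 43.5 and 81.5 in DMEM 1 and DMEM 2. RTN4, which encodes a reticulon that shapes the endoplasmic reticulum, came next with a difference of -64.9; its interval, chr2:55048250-55051490, had 28 and 7.07 in CM 1 and CM 2 and 36.7 and 78.4 in DMEM 1 and DMEM 2. In both, the 2 CM values lay below the 2 DMEM values, and DMEM 2 stood far above DMEM 1. The neighbouring genes FADS1 and FADS2, the desaturases of long-chain fatty acid synthesis, share the interval chr11:61815897-61817953, with 11.2 and 8 in CM 1 and CM 2 and 69.2 and 60.1 in DMEM 1 and DMEM 2. There the conditions were far apart and each pair of libraries was close.

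SP3, a gene for a transcription factor of GC boxes, had percentiles of 26.7 and 6.44 in CM 1 and CM 2 and of 52.9 and 66.5 in DMEM 1 and DMEM 2. NOL3, which encodes a repressor of cell death, had 11.2 and 20.1 in CM 1 and CM 2 and 59.6 and 74.6 in DMEM 1 and DMEM 2. The conditions did not overlap at either gene. SMG9, a factor of nonsense-mediated mRNA decay, had 9.69 and 38.5 in CM 1 and CM 2 and 47.6 and 62.5 in DMEM 1 and DMEM 2, so that the CM 2 minus DMEM 1 difference was only -9.06. GCDH, a mitochondrial enzyme of lysine and tryptophan breakdown, had 5.64 and 8.71 in CM 1 and CM 2 and 43.5 and 65.2 in DMEM 1 and DMEM 2. Among the top 12 with no gene end within 1000 bp are chr6:53547644-53548553, with 11.2 and 1.92 in CM 1 and CM 2 and 51.1 and 70.0 in DMEM 1 and DMEM 2, and chr1:156503717-156506099 and chr8:100846880-100847875, lower in CM in all 4 pairs too. The exception of the 12 is chr10:86965766-86967187, which overlaps the noncoding gene ADIRF-AS1 and had 7.20 in DMEM 1, below the 28 of CM 1, beside 75.6 in DMEM 2.

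A second ordering took the smallest gap between any CM and any DMEM library, so that 1 library alone cannot place an interval high. FADS1 and FADS2 led it, whose CM minus DMEM difference was -48.9 or lower in every library pair, followed by an interval inside AK8, an adenylate kinase gene, at chr9:132769774-132770668 with -48.7 or lower. The AK8 interval had percentiles of 1.35 and 2.98 in CM 1 and CM 2, and of 53.5 and 51.7 in DMEM 1 and DMEM 2. TIMMDC1, an assembly factor of respiratory complex I, had 6.09 and 5.67 in CM 1 and CM 2 and 54.7 and 48.7 in DMEM 1 and DMEM 2. These intervals sat near the bottom of the common intervals in CM and near the middle in DMEM, with close agreement within each condition. The ordering favours such agreement, so it is a description of the intervals picked.

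GTPBP6, a GTPase of the mitochondrial ribosome in the pseudoautosomal region, had 33.2 and 28.4 in CM 1 and CM 2 and 73.7 and 78.0 in DMEM 1 and DMEM 2. This is the interval with the 3 spaced E-boxes shown above. COG5, of the Golgi tethering complex, and DUS4L, a tRNA dihydrouridine synthase, share an interval with 24.9 and 13.6 in CM 1 and CM 2 and 66.6 and 65.2 in DMEM 1 and DMEM 2. GLO1, which detoxifies methylglyoxal, stood higher in all libraries, at 36.5 and 43.0 in CM 1 and CM 2 and 83.6 and 81.5 in DMEM 1 and DMEM 2. ATG10, an enzyme of autophagosome formation, had 17.1 and 16.8 in CM 1 and CM 2, against 74.9 and 55.6 in DMEM 1 and DMEM 2. BMS1, a GTPase of small ribosomal subunit assembly, had 12.2 and 18.3 in CM 1 and CM 2, against 58.2 and 55.6 in DMEM 1 and DMEM 2. An interval with no gene end within 1000 bp, chr19:2059133-2062075, had nearly the same values as BMS1, 6.39 and 16.8 in CM 1 and CM 2 and 58.2 and 55.6 in DMEM 1 and DMEM 2.

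**Figure D4:**
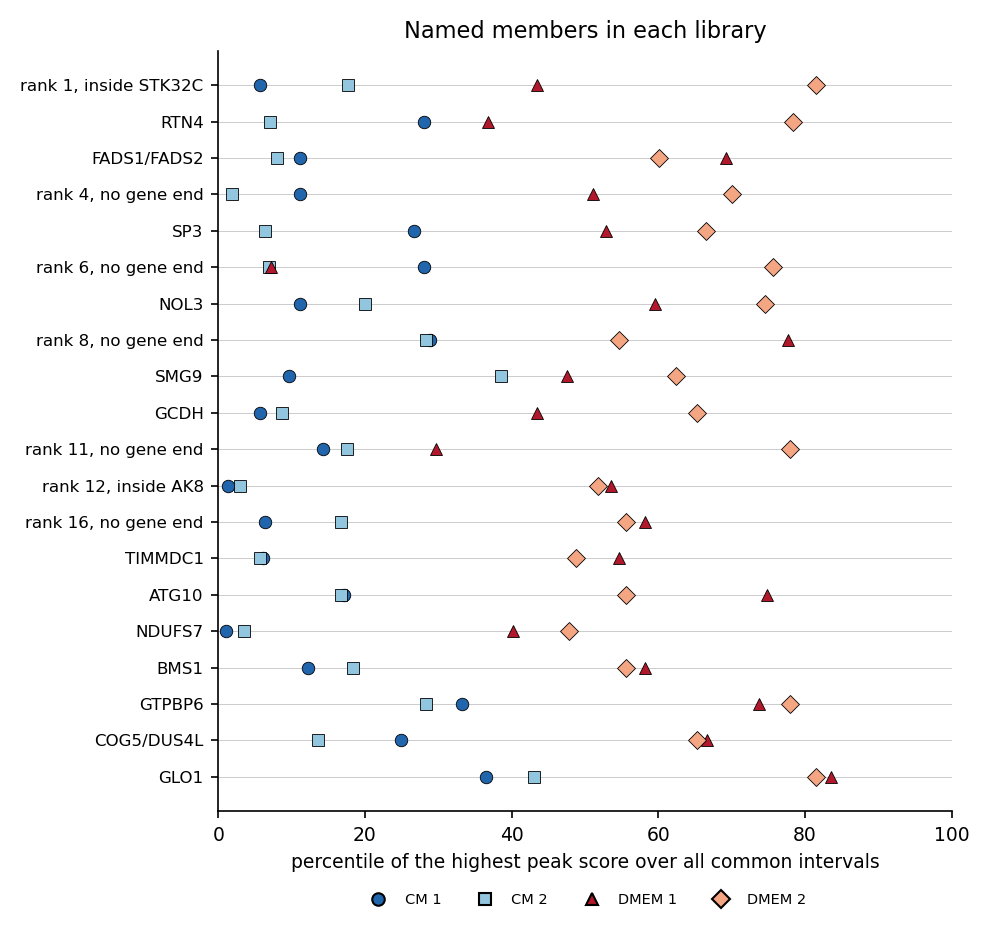
Percentile of the highest peak score over the 3175 common intervals (x axis) in CM 1, CM 2, DMEM 1 and DMEM 2 for the 12 members with the most negative difference and the 12 with the widest smallest gap between conditions, ordered by difference from the top. At FADS1/FADS2, AK8 and TIMMDC1 both CM symbols lie far left of both DMEM symbols; at the interval of rank 6 the DMEM 1 symbol lies at 7.20, left of CM 1.

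**Figure D5:**
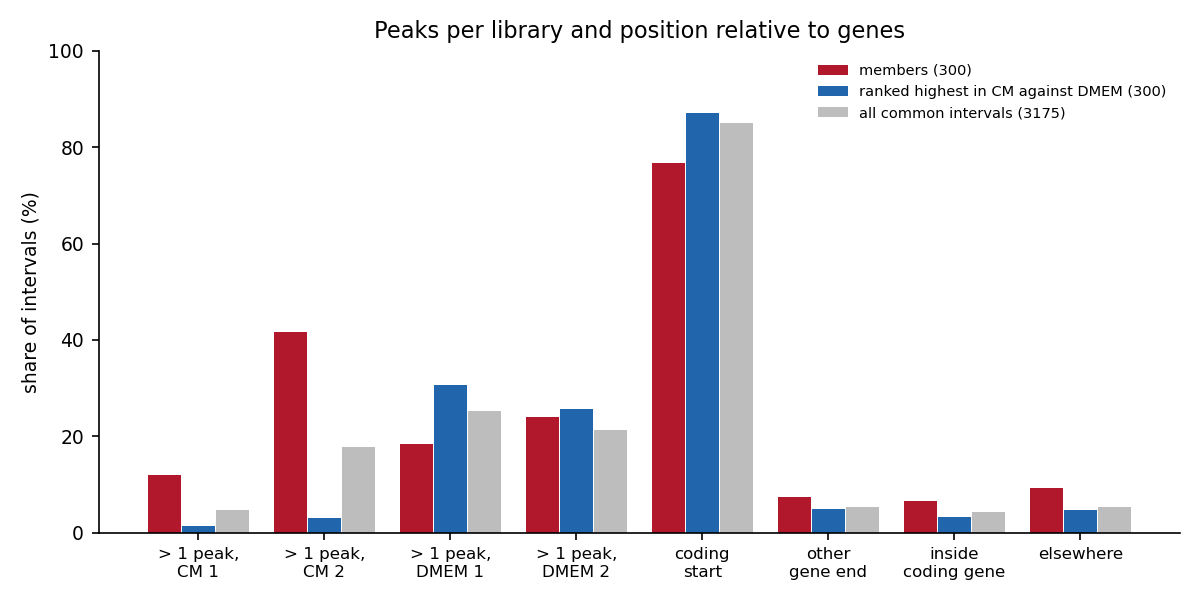
Share of intervals (y axis, percent) that hold more than 1 peak in each library, and share by position relative to genes, for the 300 members (red), the 300 intervals ranked highest in CM against DMEM (blue) and all 3175 common intervals (grey). Members hold more than 1 peak in CM 2 in 41.7% of cases, against 17.7% of all common intervals, and lie within 1000 bp of a coding gene start in 76.7%, against 85.1%.

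Most members lay at promoters, though a smaller share than of the common intervals at large. A start of a protein-coding gene lay within 1000 bp of 230 members (76.7%), against 85.1% of all common intervals and 87.0% of the 300 intervals ranked highest in CM against DMEM. Another 22 members (7.33%) lay within 1000 bp of an end of a noncoding gene, 20 (6.67%) inside a coding gene and 28 (9.33%) at none of these, against 5.29%, 4.31% and 5.29% of all common intervals. No test was made of these shares, since neighbouring regions are not replicates and all libraries had chosen the members. Chromosome 19 held 32 members (10.7%), against 7.21% of all common intervals. Another common interval lay within 25 kb of 63 members (21%), against 19.8% of all common intervals.

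Sequence was not used by the choice. The 345 promoters that overlap members belong to 275 genes, and 60 of them (17.4%) held CACGTG, against 16.5% of the 4076 promoters at all common intervals, 15.4% of the 429 at the 300 ranked highest in CM against DMEM, and 7.25% of all 35097 promoters in the table. The share at members was thus close to that at common intervals, and both lay above the share in the table. With the members chosen without DMEM 2 the share was 11.5%, and without the other libraries in turn it lay between 14.2% and 16.7%. CACGCG, a weaker E-box variant, was found in 24.3% of the members' promoters and in 26.8% of the promoters at all common intervals, and CATGTG in 7.54% and 7.04%.

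Other motifs were read on both strands in the same promoters. The GC box bound by SP factors, GGGCGGG, was found in 219 of the 345 members' promoters (63.5%), against 55.0% of those at all common intervals and 51.7% at the 300 ranked highest in CM against DMEM. CGGAAG, the core of ETS sites, was found in 110 (31.9%), against 37.6% at all common intervals. TGACTCA, an AP-1 site, was found in 15 (4.35%), against 2.48% at all common intervals and 4.95% of all promoters in the table, and TGACGTCA, a CREB site, in 17 (4.93%), against 3.36% at all common intervals. The members' promoters had a median GC content of 68.0%, against 66.3% at all common intervals, a difference that moves with the share of the GC-rich motif and whose part in it was not tested. Of the other motifs, CCAAT was found in 34.2% of the members' promoters and 32.9% of those at all common intervals, TATAAA in 4.64% and 4.29%, GCGCATGC in 6.09% and 6.23%, CTCGCGAG in 3.48% and 2.97%, AAGATGGCG in 4.06% and 5.03%, and CCGGAAGT in 8.41% and 9.76%. A match describes the letters in a window and not a bound site.

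The genes at members were then read by function, from 38 lists that also hold pseudogenes and antisense genes where a name pattern took them in. Members are 9.45% of all common intervals, which is the share to read each list against. At least 1 listed gene lay within 1000 bp of 70 members (23.3%), against 31.1% of all common intervals. With 1 library left out or with each library's highest peak, the members per list moved by over 1.5 times in 62 of 180 counts, so a list's count describes this choice of intervals and no more.

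Ribosome production and protein synthesis hold the classical MYC targets. Of 72 common intervals at cytosolic ribosomal protein genes, 3 were members (4.17%) and 5 (6.94%) belonged to the 300 ranked highest in CM against DMEM. Of 88 at ribosome assembly factors, 2 were members (2.27%) and 8 (9.09%) belonged to the 300 ranked highest in CM. These intervals had median CM percentiles of 87.2 and 85.9, above the 71.1 of the highest member. What part this has in their member shares was not tested. The members at assembly factors were BMS1 and ESF1, a nucleolar protein of pre-rRNA processing. With CM 1 left out 4 were taken, and with DMEM 2 left out 1. ESF1 shares its interval with NDUFAF5, so the respiratory chain list counts it too, and it was lower in CM in 2 of the 4 library pairs. The ribosomal protein genes were RPL41, RPL23A and RPL30, all of the large subunit. RPL41 shares its interval with ZC3H10 and had percentiles of 52.4 and 26.5 in CM 1 and CM 2, and of 94.5 and 53.4 in DMEM 1 and DMEM 2, and the nearest libraries, CM 1 and DMEM 2, differed by -1.02 (CM minus DMEM). RPL23A lies within 1000 bp of an interval that overlaps TLCD1 and not RPL23A itself. That interval had 11.2 and 57.4 in CM 1 and CM 2 and 85.5 and 21.1 in DMEM 1 and DMEM 2. RPL30 had 52.3 and 40.7 in CM 1 and CM 2 and 81.3 and 28.2 in DMEM 1 and DMEM 2. At RPL23A and RPL30 the conditions overlapped and DMEM 1 alone stood above both CM libraries.

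Among 43 common intervals of the translation factor list, which does not hold the mitochondrial initiation factor gene MTIF2 of another member, 1 was a member, at EIF4EBP3, whose product binds and inhibits the cap-binding factor eIF4E. Its percentiles were 31.0 and 16.1 in CM 1 and CM 2, against 5.50 and 66.2 in DMEM 1 and DMEM 2, so the conditions overlapped. None of 21 intervals at aminoacyl-tRNA synthetases, 28 at RNA helicases, 25 at cytosolic chaperones, 13 at enzymes of glycolysis and glutamine use, or 12 at DNA replication genes was a member. Nor was any of 15 at genes of the integrated stress and unfolded protein response, 5 at polyamine synthesis genes or 4 at E-box factors other than MYC. Several of these counts of 0 rest on the full set of libraries. With 1 library left out, or with each library's highest peak, 2 or 3 intervals were taken at the synthetases. Under the same settings 0 to 2 were taken at the helicases and at the chaperones. At the glycolysis, DNA replication and stress response lists 0 or 1 was taken, and at the polyamine and E-box lists none.

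Transfer RNA genes had the largest member share of the lists with 20 or more common intervals: 7 of 31 intervals within 1000 bp (22.6%). Among the smaller lists, that of the cell cycle regulators had a larger share, 3 of 12 (25%). With CM 1 left out the rule took 3 intervals at tRNA genes, with CM 2 left out 4, with DMEM 1 left out 5 and with DMEM 2 left out 9. With the mean of each library's highest peak it took 4, so the count rests on the libraries and the score taken. Both highest-placed tRNA intervals lie at a coding gene too. Near KCTD2, which starts 490 bp outside the interval, chr17:75033061-75035641 covers TRR-CCT1-1, TRR-CCT2-1 and TRR-TCG3-1, and the percentiles were 38.9 and 4.44 in CM 1 and CM 2 and 64.9 and 60.1 in DMEM 1 and DMEM 2. At NDUFS7, whose interval chr19:1383342-1384281 covers TRF-GAA1-6 and TRN-GTT2-6, they were 1.02 and 3.57 in CM 1 and CM 2 and 40.1 and 47.8 in DMEM 1 and DMEM 2. The interval at TRP-AGG2-1 and TRP-CGG1-1 had 74.5 and 51.6 in CM 1 and CM 2 and 64.3 and 76.7 in DMEM 1 and DMEM 2, and the conditions overlapped there.

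Among the mitochondrial lists, that of the respiratory chain had the highest member share. Of 34 common intervals at respiratory chain and ATP synthase genes, 6 were members (17.6%). NDUFS7, NDUFA11 and NDUFV3 encode subunits of complex I and were lower in CM in all 4 library pairs, while ATP5MC1, a subunit of the ATP synthase ring, was lower in 3 pairs, with 48.9 and 34.9 in CM 1 and CM 2 and 46.8 and 92 in DMEM 1 and DMEM 2. NDUFAF8 and NDUFAF5, assembly factors of complex I, were lower in 2 pairs each, and the NDUFAF5 interval is the one shared with ESF1. NDUFA11 had 44.7 and 50.8 in CM 1 and CM 2, against 82.1 and 81.2 in DMEM 1 and DMEM 2. Of 35 intervals at mitochondrial ribosomal protein genes 3 were members (8.57%), at MRPS33, MRPL58 and MRPL33, and of 22 on the list of import and mitochondrial chaperones 1, at TIMMDC1, which that list holds by its name although its product assembles complex I.

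Next came genes of transcription and RNA processing. Of 39 common intervals at RNA polymerase subunits and general factors, 4 were members (10.3%). POLR2A, the catalytic subunit of RNA polymerase II, had 19.1 and 15.3 in CM 1 and CM 2 and 43.5 and 45.5 in DMEM 1 and DMEM 2. POLR2L, a small subunit shared by the RNA polymerases, lies within 1000 bp of an interval that overlaps TSPAN4 and not POLR2L itself. That interval had 15.1 and 53.6 in CM 1 and CM 2 and 81.3 and 22.9 in DMEM 1 and DMEM 2, with the conditions overlapping. TAF8 of the TFIID complex shares an interval with CCND3, and GTF2E1 of TFIIE was lower in CM in all 4 pairs. Of 50 intervals at splicing genes 3 were members, at HNRNPH3, SNRNP70 and PRPF6. HNRNPH3, an RNA-binding splicing regulator, ranked high for a member, with 57.4 and 71.7 in CM 1 and CM 2 and 89.3 in both DMEM libraries.

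Of 54 common intervals at genes of RNA modification and tRNA processing, 3 were members (5.56%), at DUS4L, TRMT10A and METTL16, while 8 were taken with CM 2 left out and 6 with DMEM 2 left out. Of 33 at nuclear pore and transport genes, NUP98 and NUP155 were members. NUP155, a scaffold nucleoporin, had 43.9 and 39.2 in CM 1 and CM 2, against 82.5 and 67.2 in DMEM 1 and DMEM 2. At NUP98 the interval, shared with PGAP2, had 33.2 and 32.6 in CM 1 and CM 2 and 43.5 and 85.3 in DMEM 1 and DMEM 2, again with DMEM 2 far above DMEM 1.

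Of 12 common intervals at cell cycle regulators, 3 were members, and 1 with either CM library left out: CCND3, which encodes cyclin D3, CKS2, a subunit of cyclin-dependent kinases, and CCNB1, which encodes the mitotic cyclin B1. CCND3 had 49.8 and 13.6 in CM 1 and CM 2 and 63.3 and 68.4 in DMEM 1 and DMEM 2. CCNB1 had 10.9 and 33.0 in CM 1 and CM 2, against 41.8 and 53.4 in DMEM 1 and DMEM 2. CKS2 had 42.8 and 45.2 in CM 1 and CM 2, against 54.7 and 61.0 in DMEM 1 and DMEM 2. All 3 were lower in CM in all 4 pairs, as were 65.3% of all members and 19.7% of all common intervals. The nearest libraries of the conditions differed by -13.4 at CCND3, -9.46 at CKS2 and -8.83 at CCNB1 (CM minus DMEM). One of 19 intervals at DNA repair genes was a member, at FANCC, and one of 20 at spindle and centrosome genes, at MAD2L1BP.

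Of 19 common intervals at genes of ubiquitin-conjugating enzymes and cullins, 3 were members, at CUL1, UBE2S and UBE2N. CUL1, the scaffold of SCF ubiquitin ligases, had 21.4 and 31.3 in CM 1 and CM 2 and 71.7 and 57.5 in DMEM 1 and DMEM 2. UBE2S, which extends ubiquitin chains for the anaphase-promoting complex, had 24.9 and 53.6 in CM 1 and CM 2 and 76.0 and 77.5 in DMEM 1 and DMEM 2. Of 15 intervals at proteasome genes, PSMB10 and PSMG3 were members, and of 27 at lysosome and autophagy genes, ATG10, SQSTM1 and ATP6V0A1 (11.1%). SQSTM1, the autophagy receptor p62, had 59.6 and 38.5 in CM 1 and CM 2 and 58.2 and 75.6 in DMEM 1 and DMEM 2, and ATP6V0A1, a subunit of the lysosomal proton pump, had 27.3 and 15.7 in CM 1 and CM 2 and 11.4 and 73.4 in DMEM 1 and DMEM 2. At these last 2 genes the conditions overlapped.

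Among gene regulators, MXI1, a MAX partner that opposes MYC, was 1 of 10 common intervals of the MYC network, with 7.31 and 23.4 in CM 1 and CM 2 and 15.3 and 45.5 in DMEM 1 and DMEM 2. NR1D2, a nuclear receptor that represses clock genes, was 1 of 10 at circadian genes, with 25.5 and 22.8 in CM 1 and CM 2 and 73.7 and 50.6 in DMEM 1 and DMEM 2. SRF, the serum response factor, was 1 of 18 at immediate-early and ERK feedback genes, with 21.8 and 22.8 in CM 1 and CM 2 and 28.5 and 67.2 in DMEM 1 and DMEM 2. At SRF and NR1D2 the conditions did not overlap, whereas at MXI1 DMEM 1 lay between the CM values. Of 125 intervals at zinc finger genes 10 were members (8%), among them ZNF319, ZNF296 and ZNF274. Another 18 (14.4%) belonged to the 300 ranked highest in CM against DMEM. Of the 10 members, 9 were lower in CM in all 4 pairs, against 65.3% of all members and 19.7% of all common intervals. The choice had used these values. Of 48 at chromatin modifiers and remodellers, PHF14, SMARCA2 and KMT2A were members, and of 8 at histone genes, the linker histone gene H1-10.

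In metabolism and transport, MVK, the mevalonate kinase of cholesterol synthesis, was the only member among the 13 common intervals of the list of cholesterol and fatty acid synthesis genes, which does not hold FADS1 and FADS2. It shares the interval with MMAB, a gene of cobalamin metabolism, with 33.2 and 44.1 in CM 1 and CM 2 and 84.9 and 58.9 in DMEM 1 and DMEM 2. UMPS, which makes uridine monophosphate, was 1 of 25 at nucleotide and one-carbon genes, with 67.3 and 79.2 in CM 1 and CM 2 and 85.1 and 83.2 in DMEM 1 and DMEM 2. Of 18 at amino acid transporter genes, 2 were members, at SLC38A12 and at SLC25A39, a mitochondrial carrier of glutathione. Of 42 at vesicle transport genes, 3 were members, and RAB10, a GTPase of membrane traffic, had 18.4 and 38.8 in CM 1 and CM 2, against 72.3 and 78.4 in DMEM 1 and DMEM 2. TRAPPC2L, of the TRAPP tethering complex, shares its interval with GALNS and had 22.3 and 43.2 in CM 1 and CM 2 and 11.8 and 74.6 in DMEM 1 and DMEM 2, while STX2, a syntaxin of membrane fusion, had 60.8 and 52.1 in CM 1 and CM 2 and 46.8 and 72.2 in DMEM 1 and DMEM 2. In both, DMEM 1 lay below the CM libraries and DMEM 2 above them. Of 25 intervals at host genes of small nucleolar RNAs, 2 were members, SNHG7 and DANCR, and DANCR had 49.1 and 50.8 in CM 1 and CM 2 and 85.5 and 87.9 in DMEM 1 and DMEM 2. No common interval lay at a marker gene of blood cells, fibroblasts, acinar or islet cells, nor at the keratin genes and VIM listed for the line, so these lists check nothing here.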

How the data were processed

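Per the submitters' processing notes, the build was GRCh38 and the tools were MACS2 2.1.1.20160309, Picard 2.9.0, SAMtools 1.3.1, Bowtie2 2.3.4 and Trim Galore 0.4.3, with no roles or settings in the sources used here. The deposited lists hold intervals with a score per peak, the authors' own value, used only for ranks within a list. MACS2 usually writes 10 times the −log10 q-value there, which the files do not state. In the authors' common lists for CM and DMEM the score equals the mean of the joined peaks in all 13281 intervals. From these, percentiles were computed over the 3175 intervals common to all libraries, with overlaps of at least 1 bp (Python 3.11.15, pandas 2.3.3, numpy 2.4.6, scipy 1.17.1), and the steps were tested on simulated intervals. Genes and promoters came from RefSeq tables of GRCh38.p14. A gene without a promoter entry, as on chromosome 8, was matched by either annotated end, and a gene counted within 1000 bp of an interval.

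No test was made: the choice used all 4 libraries. The members and lists were chosen with earlier results of these data known. Named are the 12 members with the most negative difference, the 12 with the widest smallest gap between conditions, the 2 on each side of the limit, and up to 3 members per list; NDUFV3, NDUFAF8, GTF2E1, MTIF2 and the genes of counts are named beyond it after their values were seen.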

Additional observations from a re-analysis of the deposited data

How the results depend on the processing

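Of the 300 members, 285 were chosen again with the mean over overlapping list intervals, 297 on autosomes alone, 200 by the log2 ratio of scores and 219 with the mean of each library's highest peak. With the score per kb 121 remained, and with overlaps of at least 50% of the interval, which only 1630 intervals meet in both lists, 125. Leaving out 1 library in turn, with the highest peak of the remaining library in place of that condition's list score, kept 151 to 205. The share lower in CM in all 4 library pairs, 65.3%, was 76.0% in the first 100 intervals, 59.6% in the first 500, 75.3% with the highest peaks and 73.0% by log2 ratio. With percentiles taken within each library's whole list, in which CM lists are far longer, it was 7%, against 1.04% of all common intervals. The share at coding gene starts, 76.7%, lay between 77.0% and 80.3% with 1 library left out, against 85.1% of all common intervals. With all annotated genes it was 84.0%, against 90.4% of all common intervals. The CACGTG share, 17.4%, lay between 11.5% and 16.7% with 1 library left out, against 16.5% at all common intervals. With 1 promoter per interval it was 20.1%, against 18.4% at all common intervals. Over the 36 lists with a common interval, the members per list moved by over 1.5 times in 62 of 180 counts with 1 library left out or with the highest peaks, and in none with another window. The planned ranking by fold enrichment was not run. No paired analysis was possible because no result comes from a test. The settings with the highest peaks, by log2 ratio for the library pairs, with 1 promoter per interval, and with 1 library left out for the gene starts and motifs were added after the data had been seen. Depth is unknown, and with 2 libraries per condition 1 library can place an interval among the members. The causes were not tested.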
